A study of Mus musculus with 2 samples.

Results

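Foxp3-positive cells formed a small class among mouse CD4+ T cells sorted for a history of Il17 transcription. A cell belonged to the class if it carried at least 1 UMI (a counted molecule of RNA) of Foxp3, at least 1 UMI summed over Cd3d, Cd3e and Cd3g, and 0 UMIs of Cd79a. The members were therefore chosen by measured values, and the levels of Foxp3, of the CD3 genes and of Cd79a in them describe the choice and are not a finding. Of 6859 cells kept after quality filters, 75 met the rule. They were set against the 6570 other CD3-positive, Cd79a-negative cells, which had 0 Foxp3 UMIs.

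The study held 2 droplet libraries, 1 per genotype, made from mice immunised with MOG, a myelin protein, together with CFA (complete Freund's adjuvant) and taken at the peak of experimental autoimmune encephalomyelitis (EAE), which models multiple sclerosis. Control mice were Il17Cre/R26YFP: Cre recombinase driven by Il17 turns on YFP from the Rosa26 locus, and the YFP remains on in the descendants of a cell that once made Cre. Id2-deficient mice were Il17Cre/Id2f/f/R26YFP, so that the same Cre also acts on floxed alleles of Id2, which encodes an inhibitor of E protein transcription factors. Both genotypes thus carried Cre and YFP and both were immunised. Cells of both were sorted as CD4+ YFP+; the titles name DLN, the source field spleen and lymph node, and the protocol spleen, and the number of mice per library and the floxed exons are not given in the sources used here. Cre can act on Id2 only in cells that have made it. Of the 75 members 60 were control and 15 Id2-deficient cells.

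Foxp3 is the transcription factor that specifies regulatory T cells, which restrain other T cells. These cells carry the high-affinity IL-2 receptor chain CD25 (Il2ra), the inhibitory receptor CTLA-4 (Ctla4) and often the Ikaros-family factor Helios (Ikzf2), and they depend on IL-2 signalling through STAT5. In mouse models some Foxp3-positive cells have been seen to start making IL-17 and the reverse. In GRCm38 coordinates Foxp3 lies at chrX:7573644-7595245, Il2ra at chr2:11642807-11693193, Ctla4 at chr1:60887000-60915832 and Ikzf2 at chr1:69531214-69687245.

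The libraries held 4937 control and 2459 Id2-deficient barcodes with 33646845 and 14668624 UMIs. The filters on genes per barcode and mitochondrial share removed 12 and 525 of them, and none of the removed barcodes carried a Foxp3 UMI. Members had a median of 5895 UMIs among control and 5957 among Id2-deficient cells, against 5464 and 6394 in Foxp3 = 0 cells. Their median mitochondrial share was 1.55% and 3.25%, against 1.76% and 4.19%. Id2 itself was at 339 CPM (UMIs per 1000000 UMIs of the class) in control and 12.4 CPM in Id2-deficient Foxp3 = 0 cells, as the labels require. Of the barcodes 3 occurred in both libraries and none of these was a member. With 1 library per genotype nothing could be tested between genotypes, and cells are not replicates; every interval below is a 95% interval for counting error alone.

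Foxp3 was sparse in the cells that had it. In the control library 95 UMIs lay in 60 cells: 40 cells had 1 UMI, 10 had 2, 6 had 3, 3 had 4 and 1 had 5. In the Id2-deficient library 46 UMIs lay in 15 cells: 4 cells had 1, 3 had 2, 3 had 3, 3 had 4, 1 had 6 and 1 had 9. A cell with 2 or more UMIs was thus in the minority among control members (33.3%, 21.7 to 46.7) and in the majority among Id2-deficient members (73.3%, 44.9 to 92.2). The summed level in members was 213 CPM (172 to 260) among control and 437 CPM (320 to 582) among Id2-deficient cells. Both values are set by the gate and are given as a description.

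The share of CD3-positive, Cd79a-negative cells that carried Foxp3 was 1.26% among control (60 of 4771 cells; 0.961 to 1.62) and 0.80% among Id2-deficient cells (15 of 1874; 0.449 to 1.32). When every cell was thinned to 1000 UMIs the order turned: 13 of 4769 control cells (0.273%, 0.145 to 0.466) and 7 of 1867 Id2-deficient cells (0.375%, 0.151 to 0.771) kept a Foxp3 UMI, with 2 and 7 shallower cells left out. The Foxp3 level over all these cells was 2.95 CPM (2.38 to 3.60) and 3.33 CPM (2.44 to 4.44). The counting intervals of the libraries overlapped for the share, the thinned share and the level. With a limit of 5% mt- UMIs the shares were 1.26% among control and 1.08% among Id2-deficient cells. A difference in the frequency of Foxp3-positive cells could not be tested with 1 library per genotype. Cells that should lack Foxp3 gave none: 0 of 37 control and 0 of 33 Id2-deficient Cd79a-positive, CD3-negative cells had a UMI, which allows shares of up to 8.11% and 9.09% at median depths of 3638 and 4954 UMIs. Both limits lie above the shares in CD3-positive cells, so these few cells cannot measure a background of Foxp3 UMIs. No Foxp3 UMI was found in any kept cell outside the gate.

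Members carried other regulatory T cell markers more often than the rest. Il2ra was detected in 42 of 75 members (56.0%) against 13.0% of Foxp3 = 0 cells, Ctla4 in 47 (62.7%) against 17.2%, and Ikzf2 in 23 (30.7%) against 18.9%. In the control library the shares were 51.7% against 14.5% for Il2ra, 56.7% against 13.7% for Ctla4 and 26.7% against 15.2% for Ikzf2. In the Id2-deficient library they were 73.3% against 9.09%, 86.7% against 26.1% and 46.7% against 28.2%. All 3 markers were therefore more frequent among members in both libraries, and Ikzf2 was the least separated. At a common depth of 1000 UMIs a UMI remained for Il2ra in 16% against 2.53%, for Ctla4 in 16% against 4.30% and for Ikzf2 in 9.33% against 5.46%; for Ikzf2 the interval of the members' share (3.84 to 18.3) spans the value of the other cells.

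Taken per cell, 63 of 75 members (84.0%, 73.7 to 91.4) had at least 1 of the 3 markers and 40 (53.3%, 41.4 to 65.0) at least 2, against 40.3% and 8.36% of Foxp3 = 0 cells. Thinned to 1000 UMIs, the shares with at least 2 were 5.33% and 0.686%. Read the other way, Foxp3 was found in 0.305% of cells with none of the 3 markers, 1.08% with 1, 5.61% with 2 and 25.0% with all 3 (9 of 36 cells). In the last group 27 cells with all 3 markers had 0 Foxp3 UMIs and so lay among the comparison cells. At the edge of the rule, the 44 members with a single Foxp3 UMI had at least 2 markers in 47.7% of cells (32.5 to 63.3) and the 31 members with more UMIs in 61.3% (42.2 to 78.2), at median depths of 5566.5 and 6655 UMIs. The label of regulatory T cells thus held for the class as a whole by its defining markers, while 12 members had none of the other 3.

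**Figure D1:**
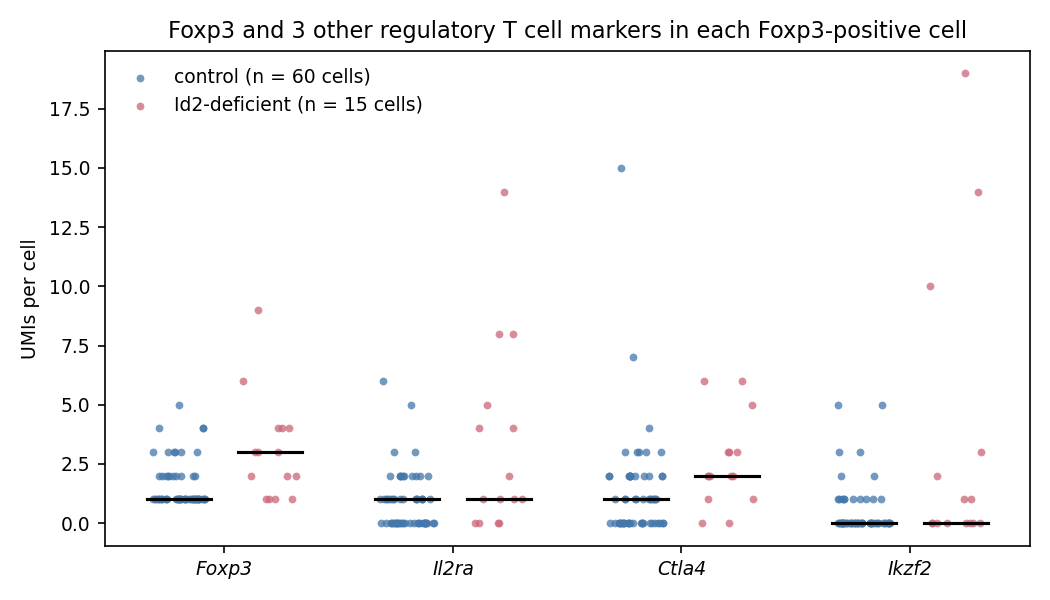
UMIs per cell (vertical axis) of Foxp3, Il2ra, Ctla4 and Ikzf2 in each of the 60 control and 15 Id2-deficient Foxp3-positive cells; each point is a cell and black bars are medians. Most points lie at 0 to 3 UMIs, the highest Foxp3 values are 5 in a control and 9 in an Id2-deficient cell, and Ikzf2 is at 0 in most cells of both libraries.

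Summed over cells, Il2ra stood at 121 CPM in control members against 31.9 CPM in control Foxp3 = 0 cells, and at 465 against 20.7 CPM in the Id2-deficient library. Members of both libraries were above the comparison cells, and the pooled ratio was 6.55-fold (5.30 to 8.01). For Ctla4 the levels were 179 against 28.0 CPM and 361 against 71.5 CPM, 5.21-fold pooled (4.28 to 6.27). For Ikzf2 they were 67.2 against 36.3 CPM and 475 against 104 CPM, 2.55-fold pooled (2.02 to 3.19), with 23.8% of the members' UMIs in 1 cell. Of the 50 Ikzf2 UMIs in Id2-deficient members 19, 14 and 10 lay in single cells.

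Across the transcriptome the class differed from the rest in few genes. A gene counted as measured if its mean level over all CD3-positive, Cd79a-negative cells predicted at least 10 UMIs in the members, and as higher or lower if the CPM ratio was at least 2-fold. Of 5639 measured genes, 69 (1.22%) were higher in members and 166 (2.94%) lower; over all measured genes the median was 0.03 on the log2 scale. Of the 69, 62 were also above the comparison cells in each library and 35 passed 2-fold in each. Of the 166, 156 were below them in each library and 42 passed 2-fold in each. Genes with 0 UMIs in a library's members were counted as below, also where the comparison level was under that library's floor. Each library is part of the pooled ratio that made the call, so these counts describe the calls and give no separate support. A single cell held 20% or more of the members' UMIs for 7 of the higher and 119 of the lower genes, so that many of the lower calls rest on few molecules. By library, 55 of 4908 measured genes (1.12%) were higher and 137 (2.79%) lower in the control, and 26 of 1413 (1.84%) and 69 (4.88%) in the Id2-deficient library.

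Apart from Il2ra and Ctla4, the genes with the firmest excess in members included signalling genes known as targets of IL-2 and STAT5. Socs2, a suppressor of cytokine signalling, was at 190 against 54.6 CPM among control and 171 against 14.1 CPM among Id2-deficient cells, 4.41-fold pooled (3.58 to 5.37). Pim1, a survival kinase, was at 578 against 258 CPM and 626 against 105 CPM, 2.77-fold (2.48 to 3.10), and was found in 68 of 75 members. Levels of both genes in the members were close between libraries, while those of the comparison cells were lower in the Id2-deficient library. Serpina3g, a protease inhibitor of activated T cells, was at 103 against 39.0 CPM and 313 against 21.1 CPM, 4.26-fold (3.36 to 5.35).

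Among the other genes with a firm excess, Glb1, the lysosomal beta-galactosidase, was 3.91-fold higher (2.85 to 5.26), but its 46 UMIs in members all came from control cells. The collagen prolyl hydroxylase subunit P4ha1 was 3.50-fold higher (2.51 to 4.77), the stress-responsive sestrin Sesn1 3.35-fold (2.46 to 4.48), the membrane protein gene Cldnd1 3.24-fold (2.60 to 4.00), the kinase gene Matk 3.03-fold (2.33 to 3.88) and the glutaredoxin Glrx 2.86-fold (2.40 to 3.38). These 5 were above the comparison cells in both libraries. Ighm, the immunoglobulin mu heavy chain, was at 280 against 66.9 CPM among control and 1167 against 297 CPM among Id2-deficient cells, 3.30-fold pooled (2.89 to 3.75), and was detected in 50 of 75 members.

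**Figure D2:**
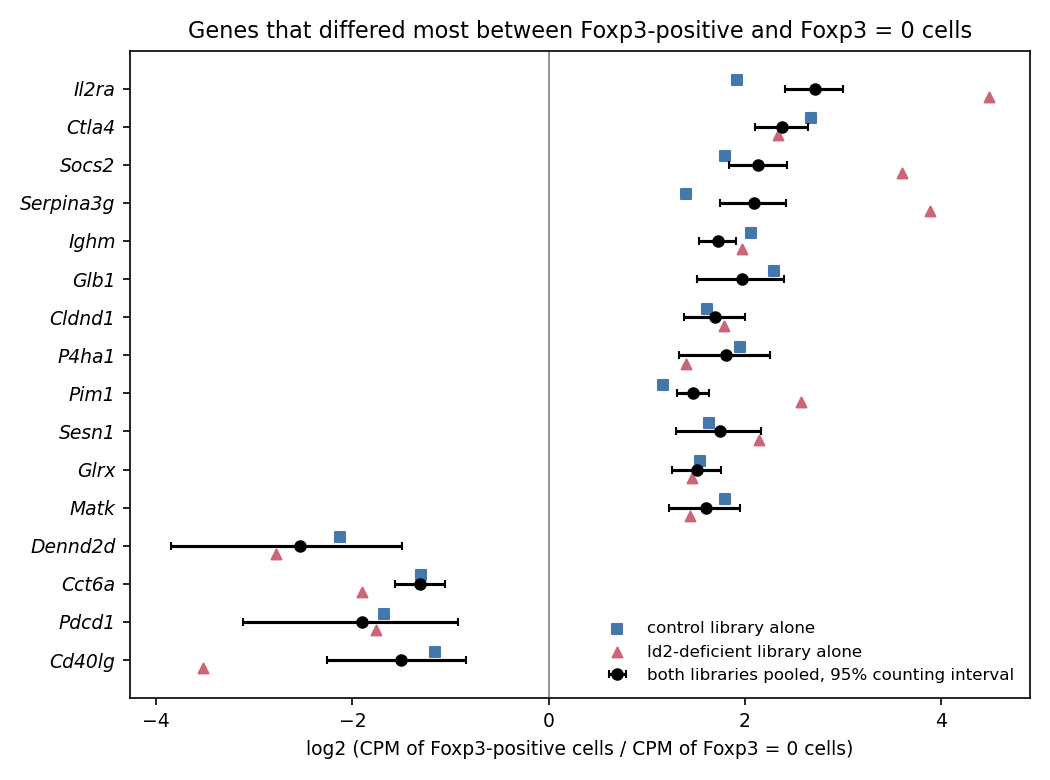
Log2 ratio of CPM in Foxp3-positive over Foxp3 = 0 cells (horizontal axis) for the 12 highest genes by lower bound and, of the 12 lowest by upper bound, the 4 that had UMIs in members; black points are both libraries pooled with 95% counting intervals, coloured marks the libraries alone. Il2ra is the highest pooled gene at 2.71, and the control and Id2-deficient marks lie on the same side of 0 for every gene with a mark from both.

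Of the 22 genes listed for regulatory T cell identity other than Foxp3, 12 were measured: 9 were at least 2-fold higher in members, none was lower and the median log2 ratio was 1.38, beside 0.03 over all measured genes. Besides Il2ra, Ctla4, Ikzf2 and Socs2 the 9 included the heparan sulfate proteoglycan Sdc4 (log2 2.47, 2.05 to 2.85), the integrin chain CD103 gene Itgae (1.40, 0.97 to 1.80), the GITR gene Tnfrsf18 (1.36, 1.10 to 1.61) and the ectonucleotidase CD73 gene Nt5e (1.27, 0.89 to 1.62). The ninth, the enkephalin precursor Penk (1.64), had 80.6% of its 31 UMIs in 1 cell and was below the comparison cells in the control. The actin-capping gene Capg (0.86), the folate receptor family gene Izumo1r (0.69) and the semaphorin receptor Nrp1 (0.01) did not reach 2-fold. Within libraries the list's median was 1.26 over 10 measured genes in the control, 7 of them higher, and 1.97 over 3 in the Id2-deficient library, 2 of them higher.

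Several identity genes were too rare to pass the filter. Entpd1 (CD39) had 11 UMIs in 7 members, or 9.33% of them, against 1.51% of Foxp3 = 0 cells, and Ikzf4 (Eos) 9 UMIs in 7 members against 1.13%. By library Ikzf4 was in 2 of 60 control members (3.33%, 0.406 to 11.5) against 1.08%, an interval that covers the other cells. In the Id2-deficient library it was in 5 of 15 members (33.3%, 11.8 to 61.6) against 1.24%. Lrrc32 (GARP), which presents latent TGF-beta, had 3 UMIs in 2 members and 4 UMIs in all 6570 comparison cells. Members thus carried these genes at a higher rate per cell, although most cells with Entpd1 (99) or Ikzf4 (74) lay outside the class, and each value rests on few molecules.

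Genes of suppressive function differed less evenly: of 7 measured members 3 were higher (Ctla4, Nt5e and the prostaglandin receptor Ptger4, log2 1.20), 1 was lower (Pdcd1) and the median was 0.21. Tgfb1 was alike in both classes (log2 0.07, -0.35 to 0.46). Il10 had 24 UMIs in members and 3 in the comparison cells, but all 24 lay in 1 Id2-deficient cell. Gzmb was under the filter, with 45 UMIs in 12 members and 42.2% of them in 1 cell.

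TNF receptor family genes, several of which costimulate regulatory T cells, were higher for 4 of 11 measured and lower for 1, with a median of 0.59. Tnfrsf4 (OX40) was at 166 against 68.4 CPM among control and 826 against 94.8 CPM among Id2-deficient cells, 3.82-fold pooled (3.24 to 4.48), with 26.7% of the members' UMIs in 1 cell. Tnfrsf18 was at 226 against 101 CPM and 275 against 69.9 CPM, spread over 58 of 75 members. Tnfrsf1b, the second TNF receptor, was 3.12-fold higher (2.10 to 4.46) and Tnfrsf13b 2.38-fold (1.68 to 3.29), while the death receptor Fas was lower (log2 -1.14). In the IL-2 receptor and STAT5 list 3 of 15 measured genes were higher (Il2ra, Socs2, Pim1), none was lower and the median was 0.32. The STAT5 target Cish (log2 0.96) and the receptor chain Il2rb (0.64) were on the same side without reaching 2-fold. Of 13 measured NF-kB genes none passed 2-fold, and of 8 TGF-beta pathway genes 1 was higher (Tgfbr1, 1.20).

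Among transcription factors associated with Foxp3, 1 of 21 measured was higher (Ikzf2) and 1 lower (Tcf7), with a median of 0.03. Maf was at 553 against 315 CPM among control and 1205 against 560 CPM among Id2-deficient cells (log2 0.80 pooled, 0.65 to 0.95). Prdm1 (Blimp-1), under the filter, had 20 UMIs in 15 members, 20% of them against 6.48% of the rest. By library Prdm1 was in 13.3% of control members (5.94 to 24.6) against 7.09%, an interval that covers the other cells. In the Id2-deficient library it was in 46.7% (21.3 to 73.4) against 4.95%. Tcf7 (TCF-1), a factor of naive, memory and follicular helper cells, was at 152 against 268 CPM and 142 against 472 CPM, 2.19-fold lower (1.77 to 2.75). It was found in 37.3% of members against 74.9% of Foxp3 = 0 cells, and at 1000 UMIs in 6.67% against 28.5%.

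Of genes known from Th17 cells, Rora (log2 0.43) and Ccr6 (-0.13) were near the comparison cells, and the leukotriene receptor Ltb4r1 was highest of the list at 0.92.

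Th17 cytokines were rare in both classes despite the sort. Il17a or Il17f was detected in 4 of 75 members (5.33%, 1.47 to 13.1) and in 6.74% of Foxp3 = 0 cells, and in 0 of 15 Id2-deficient members, which by 3 counts of the total allows a share of cells with a UMI of up to 20%. Il17a had 6 UMIs in members, 83.3% of them in 1 cell, and Il17f 13, 69.2% in that same cell. This control cell had 8 Trdc UMIs, 1 Trac UMI, 1 Foxp3 UMI and no UMI of Il2ra, Ctla4 or Ikzf2. Il22 had 0 UMIs in members (0 of 75 cells, which by 3 counts of the total allows a share of cells with a UMI of up to 4.00%) against 29.5 CPM in the rest, at least 5.43-fold lower when set against a floor of 3 counts over the class. By library the same floor bounds the log2 ratio at -1.91 in control and -0.47 in Id2-deficient cells. Il23r, the receptor for IL-23, had 4 UMIs and was 3.52-fold lower (1.37 to 12.9). Over the Th17 list 3 of 16 measured genes were lower (Il22, Il21 and Il23r), none was higher and the median was -0.11.

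By count, follicular helper genes were the list with the most lower members: 9 of 17 measured were at least 2-fold lower, none was higher and the median was -1.05. By share, shorter lists had more lower, among them gamma delta T cell genes (8 of 9 measured) and effector cytokines (6 of 10). Pdcd1 (PD-1) was at 11.2 against 35.8 CPM among control and 28.5 against 96.7 CPM among Id2-deficient cells, 3.73-fold lower on 8 UMIs (1.89 to 8.66). Cd40lg, the ligand by which helper cells engage B cells, was at 38.1 against 85.2 CPM and 9.49 against 109 CPM, 2.83-fold lower on 18 UMIs (1.79 to 4.78). The CD30 ligand gene Tnfsf8 was 3.59-fold lower (2.48 to 5.40). Il21 had 0 UMIs against 9.41 CPM in control and 55.1 CPM in Id2-deficient comparison cells; the floor of 3 counts bounds the pooled ratio at 4.26-fold lower, but at log2 -0.49 and -0.95 within the libraries, where 2-fold is not reached. Cxcr5, which brings cells into follicles, had 3 UMIs, a ratio of 5.89-fold lower (2.01 to 28.6). Any of Cxcr5, Bcl6 or Il21 was detected in 5.33% of members against 19.7% of the rest, in the control in 3.33% against 10.6% and in the Id2-deficient library in 13.3% against 42.9%. Icos, counted in the same list, went the other way: 141 against 114 CPM and 693 against 265 CPM (log2 0.63, 0.37 to 0.87). The list's median was -0.26 in the control, with 3 of 11 measured genes lower, and -1.35 in the Id2-deficient library, with 4 of 8 lower and 2 higher.

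**Figure D3:**
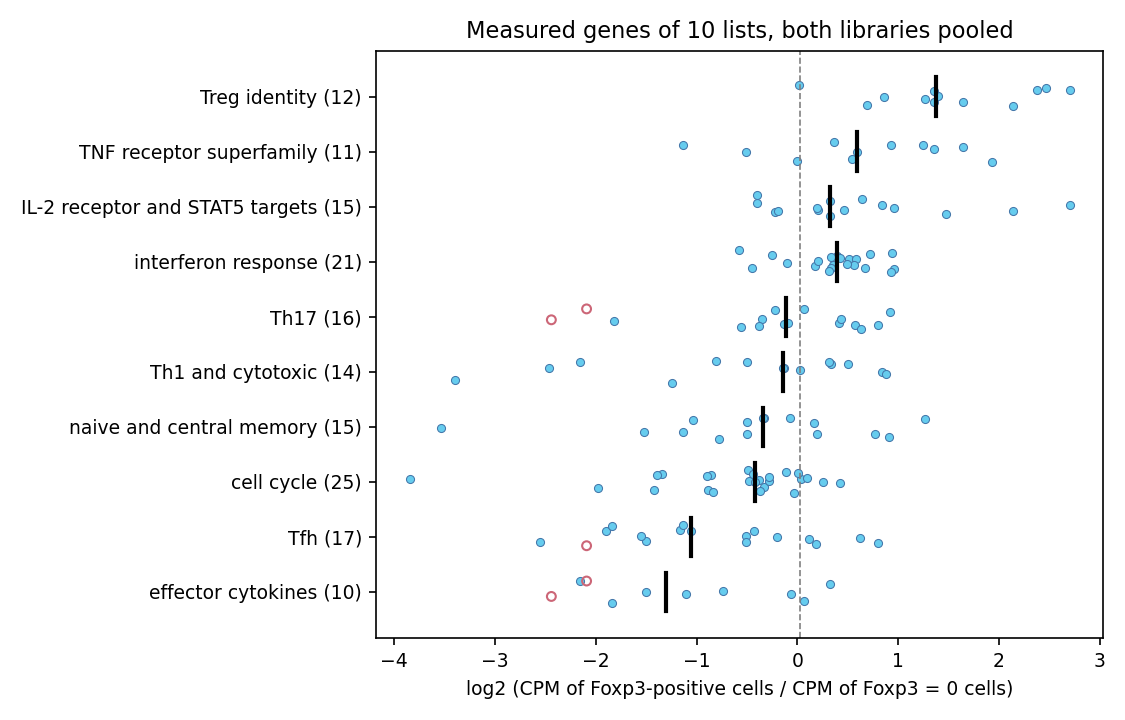
Log2 ratio of CPM in Foxp3-positive over Foxp3 = 0 cells (horizontal axis), both libraries pooled, for the measured genes of 10 lists with the number measured in brackets; points are genes, open red points genes with 0 UMIs in members drawn at their bound, black bars list medians and the dashed line the median of all measured genes at 0.03. The Treg identity list lies furthest right with a median of 1.38, and the Tfh and effector cytokine lists furthest left at -1.05 and -1.30.

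Other effector genes were sparse as well. Of 10 measured effector cytokine genes 6 were lower, none was higher and the median was -1.30; Ifng had 3 UMIs, all in 1 cell. Lymphotoxin beta (Ltb) was the highest of that list at log2 0.32, and was detected in all 75 members. In the Th1 and cytotoxic list 4 of 14 measured genes were lower (Gzma, Klrd1, Ifng and Il18rap) and none higher, with a median of -0.14. Dennd2d had 7 UMIs and was 5.79-fold lower (2.81 to 14.4), and the chaperonin subunit gene Cct6a was at 260 against 639 CPM and 114 against 424 CPM, 2.47-fold lower on 128 UMIs (2.08 to 2.97). Nrgn, which binds calmodulin, had 0 UMIs, which bounds the pooled ratio at 4.09-fold lower and the ratios by library at log2 -1.09 in control and -0.51 in Id2-deficient cells.

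Homing genes were divided. Of 20 measured, 3 were higher and 3 lower, with a median of 0.03. The higher ones included Itgae and Ccr4 (2.54-fold, 1.80 to 3.47), a receptor used for entry into skin and other tissues. The lymph node receptor Ccr7 was lower (2.04-fold, 1.03 to 4.74), as was Cxcr5. Gpr15 and Ccr9, receptors for homing to the large and small intestine, were under the filter: Gpr15 was in 8 members (10.7%) against 0.93% of the rest, 6 of them control and 2 Id2-deficient, and Ccr9 in 5 members (6.67%) against 0.90%, with 55.6% of its 27 UMIs in 1 cell. Among 15 measured naive and central memory genes 4 were lower (Myb, Nsg2, Tcf7 and Ccr7), with a median of -0.34.

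Interferon-response genes lay above 0 in 17 of 21 measured, with a median of 0.40, but none passed 2-fold when the libraries were pooled. Ifi27l2a was at 2728 against 1229 CPM among control and 2439 against 2532 CPM among Id2-deficient cells, so that it was higher in members of the control library alone. Igtp was at 217 against 112 CPM and 256 against 124 CPM (log2 0.96). Cell cycle genes were lower for 5 of 25 measured, none was higher and the median was -0.42; it was -0.37 among control and -0.90 among Id2-deficient cells. The topoisomerase Top2a was at 40.3 against 102 CPM and 19.0 against 85.8 CPM (log2 -1.43, -2.14 to -0.80), while Mki67 was at -0.38 (-0.90 to 0.10). Glycolysis genes were close to the rest, with 1 of 15 lower (Ldhb) and a median of -0.13.

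Markers of other cells that the gate could hold were examined next. Trac, the T cell receptor alpha constant gene, was in 94.7% of members and 83.6% of Foxp3 = 0 cells, and Cd4 in 66.7% and 60.4%. Of 10 gamma delta T cell genes 9 were measured and 8 were lower in members (median -1.89); their summed level was 159 against 650 CPM among control and 399 against 492 CPM among Id2-deficient cells. Trdc was confined to 2 members, with 14 UMIs in an Id2-deficient cell and 8 in the control cell that held most Il17a and Il17f UMIs of the class. The comparison cells thus held gamma delta T cell genes that the members largely lacked. With both classes limited to cells with Trac and without Trdc, an alternative chosen after seeing the data, log2 ratios were 3.02 for Il2ra, 2.22 for Ctla4, 1.56 for Ikzf2, 2.17 for Socs2, 1.61 for Pim1 and -1.29 for Tcf7. Each kept its direction and its side of 2-fold.

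Of 13 myeloid genes 4 were measured and 3 were lower, among them Lyz2 with 0 UMIs in members and S100a9 with 3; 7 of the 13 were at 0, Csf1r, Cd68 and Tyrobp among them. The summed level was 262 against 1817 CPM among control and 209 against 183 CPM among Id2-deficient cells. The neutrophil genes Camp (14.5-fold lower with the floor of 3 counts), Lcn2 (10.8-fold) and Lyz2 (10.6-fold) led the genes lower in members when pooled. Their level in Id2-deficient comparison cells was under the floor for that library, so these ratios rest on the control. In the comparison cells Camp was found in 1.58% of cells, Lcn2 in 0.99% and Lyz2 in 2.21%. By 3 counts of the total, 0 of 75 members allows a share of up to 4.00%, which lies above all of these. Counted by cell, their absence from members thus shows no difference. Of 5 measured MHC class II genes 4 were lower, and H2-Aa had 0 UMIs, which with the floor puts the pooled ratio at 3.73-fold lower and the ratios by library at log2 -1.14 and -0.21. H2-Aa was found in 2.68% of comparison cells, also under the limit of 4.00%. The part of a few comparison cells with myeloid RNA in these ratios was not tested.

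Of 11 B cell genes other than Cd79a 3 were measured, and Ighm was the only one past 2-fold. Ms4a1, Cd22, Ebf1, Fcer2a, Ly6d and Pax5 were at 0 UMIs in members, while Cd79b had 24 and Igkc 19. The list's summed level was 345 against 120 CPM among control and 1329 against 358 CPM among Id2-deficient cells, of which Ighm alone made up 280 against 66.9 and 1167 against 297 CPM. Ms4a1, Ebf1 and Fcer2a had 1, 2 and 4 UMIs in all comparison cells, so their 0 UMIs in members show no difference. The part of B cell RNA in the Ighm ratio was not tested. Cells with the 4% highest doublet scores numbered 2 among control and 1 among Id2-deficient members.

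Clustering of both libraries with Foxp3 left out of the variable genes placed most members in 1 cluster. Cluster 4, with Ccr7, Bcl2 and Itga4 among its leading genes, held 40 of the 75 members (53.3%), 31 control and 9 Id2-deficient, against 13.3% of Foxp3 = 0 cells. Members made up 4.39% of its 911 cells. Cluster 1, led by Stmn2 and Acsbg1, held 16 members (21.3% against 17.9%), all of them control. The remaining 19 were spread over 9 clusters with 1 to 3 each; cluster 2, led by Izumo1r and Id3 with Cxcr5 among its leading genes, held 2.67% of members against 15.9% of the rest, and cluster 3, led by Trdc and Blk, 4.00% against 14.5%. Clusters 11 and 12, led by Ccl5 and Gzma and by S100a8 and S100a9, held none. The clusters were given no cell type name, and their leading genes are those that define them.

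**Figure D4:**
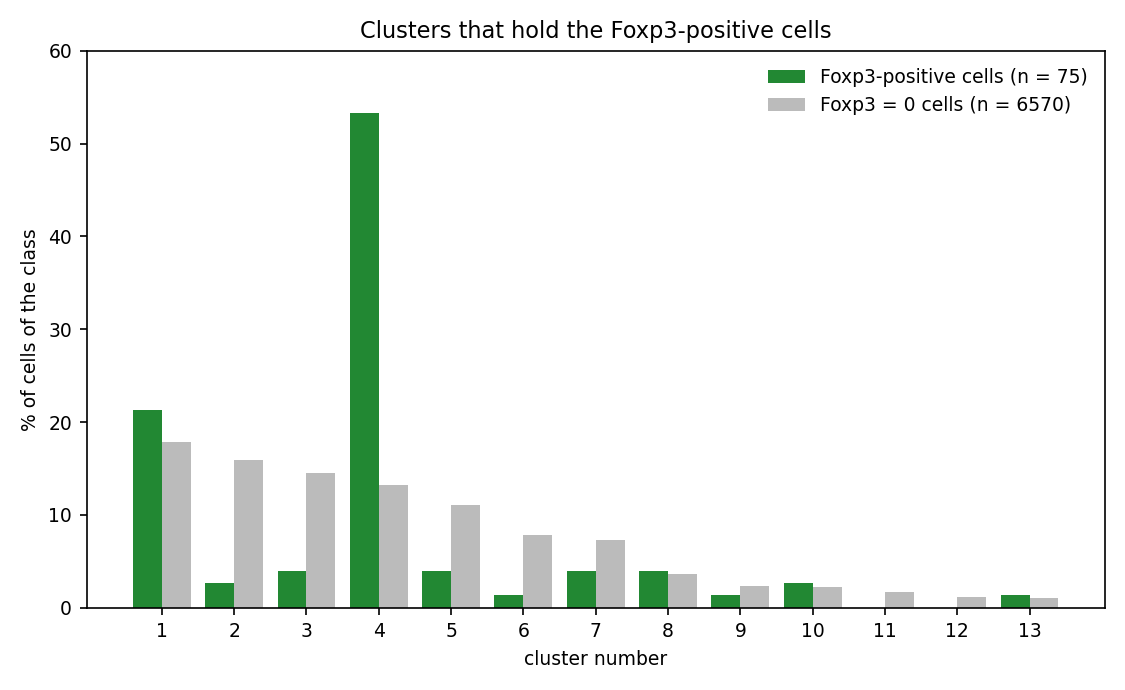
Percent of the 75 Foxp3-positive cells (green) and of the 6570 Foxp3 = 0 cells (grey) in each of 13 clusters, named on the horizontal axis by number. Cluster 4 holds 53.3% of Foxp3-positive and 13.3% of Foxp3 = 0 cells, and cluster 2 holds 2.67% and 15.9%.

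Within cluster 4, members differed from their neighbours more sharply than in the whole table for several identity genes; this comparison was added after the data were seen. There 40 members stood against 871 Foxp3 = 0 cells, and of 2806 measured genes 84 were higher and 69 lower. Of the measured identity genes, Ikzf2 had a log2 ratio of 2.41 (1.91 to 2.89) and Izumo1r of 1.97 (1.55 to 2.37). Capg was at 1.76 (1.49 to 2.02), and these intervals lay above the values in the whole table. Ctla4 was at 2.48 (2.04 to 2.91), near its value in the whole table, and Tnfrsf18 was lower than there, at 1.08. Il2ra (4.63), Serpina3g (4.64), Itgae (4.78) and Sdc4 (5.21) were under the filter on expected UMIs. Neighbours held 10.6, 8.89, 4.44 and 4.87 CPM of them, and the lower bounds were 4.06, 4.01, 3.90 and 4.44. The Treg identity median of 1.97 covers measured genes alone, without Il2ra, Itgae and Sdc4. Ccr7, a leading gene of the cluster, was lower in members than in their neighbours there (-2.29). Of the genes low in the whole table, Tnfsf8 was at -2.69 and Tcf7 at -1.34 there; Pdcd1, at -0.59, had 2 UMIs in members and an interval of -3.66 to 1.33 that covers its value in the whole table.

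Between genotypes, the members were few: 15 Id2-deficient cells with 105367 UMIs in all and 60 control cells with 446402. Of 5844 genes with at least 10 UMIs over both, 596 (10.2%) were at least 2-fold higher and 868 (14.9%) lower in Id2-deficient members, against 2.46% and 2.77% of the same genes among Foxp3 = 0 cells; the members' ratios rest on far fewer UMIs. Id2 checked the labels: it had 92 UMIs in control members (206 CPM, 30 cells) and 1 UMI in Id2-deficient members (9.49 CPM), a ratio of 21.7-fold lower (3.80 to 867). The same ratio was log2 -4.77 among Foxp3 = 0 cells. Members of the class therefore showed the loss of Id2 seen in the cells around them.

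Several of the firmest genotype differences among members were also present outside the class. Lgals3 (galectin-3) had a log2 ratio of -2.92 in members and -3.01 in Foxp3 = 0 cells, the annexin Anxa2 -3.13 and -2.17, the quiescence and trafficking factor Klf2 -1.59 and -1.71, and the integrin chain Itgb1 -1.65 and -1.45. Among the higher genes the pairs were 2.06 and 2.15 for Ighm, 1.93 and 2.32 for AY036118, 1.95 and 1.52 for the RNA-binding protein gene Zfp36l1, 1.43 and 1.70 for mt-Atp6, and 3.22 and 2.46 for Ttn. The intervals of the members covered the value outside for Ighm, Zfp36l1, AY036118, Ttn, Klf2, Itgb1, Lgals3 and Anxa2, and not for mt-Atp6 (upper bound 1.57). The median mitochondrial share was itself higher in the Id2-deficient library, at 3.25% against 1.55% in members and 4.19% against 1.76% outside. With 1 library per genotype, genotype and library quality cannot be told apart for mt-Atp6 or the other genes.

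Others lay apart. Il2ra was at 465 CPM in Id2-deficient and 121 CPM in control members (log2 1.94, 1.35 to 2.53), while among Foxp3 = 0 cells it was lower in the Id2-deficient library (-0.62, -0.82 to -0.43). Icos was at 693 and 141 CPM (2.30, 1.79 to 2.81), against 1.22 outside, and the RNA decay factor Smg5 had 8 and 3 UMIs (3.50, 1.44 to 6.05), against 0.84. Glb1 had 0 UMIs in Id2-deficient and 46 in control members, at least 3.62-fold lower, against log2 0.08 outside. Htatsf1 and Anapc5 each had 0 and 33 UMIs, at least 2.60-fold lower, against -0.05 and -0.23. A difference between these ratios could not be tested with 1 library per genotype.

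A further group of genes had genotype ratios of smaller size in members than in the cells around them. The log2 ratio in members and outside was 0.12 and -1.29 for Pim1, -0.16 and -1.95 for Socs2, 0.34 and -1.09 for Capg, -0.27 and -2.13 for the chemokine receptor Ccr2, -0.10 and 0.82 for Tcf7, and -0.16 and 1.04 for Ifi27l2a. These 6 genes were singled out after their values were seen, and no intervals are given for them here. Socs2 had 18 UMIs in Id2-deficient members. Cluster 1, with Socs2 among its leading genes, held 24.3% of control and 1.60% of Id2-deficient CD3-positive, Cd79a-negative cells. The part of such differences in cell mixture in the ratios outside was not tested. Over the Treg identity list the median genotype ratio was 0.77 in members and -0.58 outside. In members 6 of 14 measured genes were higher, beside 10.2% of all genes, and none was lower, while outside 4 were higher and 4 lower. The highest in members, Penk (5.31), had 25 UMIs in 1 Id2-deficient cell, and Ikzf2 had 19, 14 and 10 in single Id2-deficient cells. Members with 2 or more Foxp3 UMIs were 73.3% of the Id2-deficient and 33.3% of the control members, and their part in these ratios was not tested. Cell cycle genes had a median of -1.09 in members, with 11 of 21 lower, beside 14.9% of all genes, and a median of -0.36 outside, with 1 of 21 lower. Clusters 9 and 10, led by Hist1h2ap and by Ccnb2, held 1 and 2 control members and 0 Id2-deficient members. The part of these few cells in the cell cycle ratios was not tested.

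**Figure D5:**
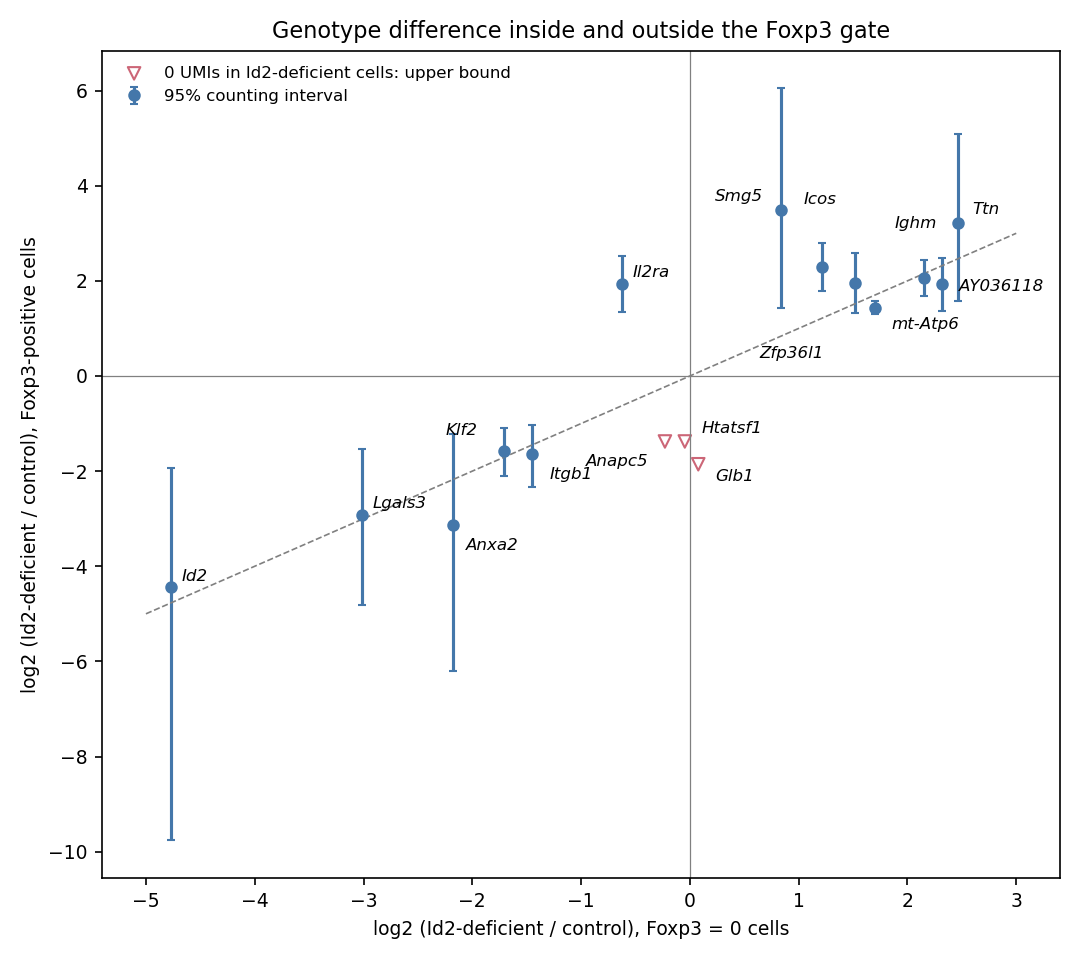
Log2 ratio of Id2-deficient over control CPM among Foxp3 = 0 cells (horizontal axis) and among Foxp3-positive cells (vertical axis) for the 8 highest and 8 lowest genes in Foxp3-positive cells; bars are 95% counting intervals, open triangles genes with 0 UMIs in Id2-deficient members, and the dashed line marks equal ratios. Id2 lies at -4.77 and -4.44 near the line, and Il2ra at -0.62 and 1.94 away from it.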

How the data were processed

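The deposited counts are UMI counts per gene and barcode, written by the authors with Cell Ranger, version 5.0.1 per the file headers and 1.3 per the submitters' processing notes, on mm10 per those notes. No source used here gives the rule that picked the deposited barcodes. Barcodes with at least 200 genes and at most 10% mt- UMIs were kept. The members and the 29 gene lists were chosen with earlier results of these data known; 3 listed symbols (Aldoa, Mx1 and Scart2) were not matched. UMIs were summed per class and divided by the class's total to give CPM. A gene was measured if at least 10 UMIs were expected in members from its mean over all CD3-positive, Cd79a-negative cells. Called means a ratio of at least 2-fold, a size and not a test. Intervals are 95% exact (conditional binomial for ratios, Clopper-Pearson for shares, Poisson for levels), and the ratio code was checked on simulated data. Against 0 UMIs a floor of 3 counts over the class was used, and the limit for a share of 0 is 3 counts of the total, also in place of the exact bound.

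The genes named are the 4 markers, the 12 highest by lower bound and 12 lowest by upper bound without those with 20% or more of the members' UMIs in 1 cell, list members, and the 8 highest and 8 lowest between genotypes; others are said to be chosen after their values were seen. Scrublet, run through scanpy, marked 0.0406% and 0.465% of cells and none of the members, so its threshold had not worked and doublets were not removed; an alternative left out the 4% highest scores. Clusters (scanpy 1.11.5, leidenalg 0.10.2) used 2000 variable genes without Foxp3, 30 components, 15 neighbours and resolution 0.8. Coordinates are from GENCODE M21 on GRCm38. Python 3.11.15, numpy 2.4.6, scipy 1.17.1, pandas 2.3.3 and matplotlib 3.10.9 were used. Alternatives were mt- and gene limits, 2 Foxp3 UMIs, other count minimums, a comparison weighted by library and depth, mean CPM per cell and each library alone; limiting both classes to Trac-positive, Trdc-negative cells or to cluster 4, and leaving out 1 member, were chosen after seeing the data. Some listed genes are not reported here.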

Additional observations from a re-analysis of the deposited data

How the results depend on the processing

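With 75 members and 1 library per genotype the depth limits every value, and no value here has a replicate check. No paired analysis was possible because each genotype had a single library. Of the main results under the alternatives 88 values stayed within the main value's range, 22 moved and none changed sign; of those for single genes 359 stayed and 62 moved. With at least 2 Foxp3 UMIs (20 control and 11 Id2-deficient members) the genes past 2-fold fell to 43 higher and 103 lower, the Treg identity median by library to 0.78 and 0.95, the control share to 0.419%, and the genotype counts to 390 higher and 502 lower; fewer cells and fewer measured genes enter there. Thinning gave shares of 0.273% and 0.375%. The Id2-deficient library alone gave 26 higher and 69 lower genes and a Treg identity median of 1.97; that library's median was 1.06 without the highest doublet scores and 1.07 with at least 20 expected UMIs, since it rests on 3 genes or fewer. The counts moved with the minimum as fewer or more genes were tested: 25 higher and 66 lower with at least 20 expected UMIs, 140 and 364 with at least 5, and for genotype 259 and 453 with at least 20 UMIs. Within cluster 4, 69 genes were lower and the Treg identity median was 1.97. Limits of 5% mt- UMIs or 1000 genes kept all 75 members. The genotype values among members could therefore not change under these 2 limits, and they are still counted among the values that stayed.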

Other observations

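Some cytokine and receptor genes were carried by single members. One Id2-deficient cell with 16513 UMIs held all 24 Il10 UMIs of the class, together with 6 of Foxp3, 14 of Il2ra, 23 of Tnfrsf4 and 10 of Ccl4, and it had 18 Trac and 14 Trdc UMIs. Another Id2-deficient cell with 13798 UMIs held 43 of the 161 Tnfrsf4 UMIs and 25 of the 31 Penk UMIs. Ccl4 had 79 UMIs in 2 members, 87.3% of them in 1 control cell, and 8 UMIs in all 6570 Foxp3 = 0 cells. Without the first of these cells the pooled log2 ratio was 1.76 for Tnfrsf4 and 2.54 for Il2ra.

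Of 5 measured inhibitory receptor genes 1 was higher in members (Ctla4) and 2 were lower (Pdcd1 and Btla), with a median log2 ratio of -0.55. Under the filter on expected UMIs, Cd160 had 0 UMIs in members, a bound of -1.46, while Havcr2 and Lag3, singled out after their values were seen, were more frequent in members. Havcr2 (TIM-3) had 14 UMIs in 11 members (14.7%) against 1.87% of Foxp3 = 0 cells, 17.9 against 4.63 CPM in the control and 56.9 against 1.09 CPM in the Id2-deficient library. Lag3 had 25 UMIs in 15 members (20%) against 4.43%, 33.6 against 7.02 CPM and 94.9 against 22.4 CPM.

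The share of members did not follow depth in one direction. In the control it was 1.94% of 773 cells under 4000 UMIs, 0.739% of 2706 cells from 4000 to 7000 UMIs and 1.93% of 1292 deeper cells. In the Id2-deficient library it was 0 of 171 (by 3 counts of the total, up to 1.75%), 1.07% of 932 and 0.649% of 771 cells.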
